A study of Drosophila melanogaster with 12 samples.

Results

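Testis transcripts of 95 genes that carry only a CG number as their name lay apart in the fly stock BL15598 from all 9 arrays of 3 other Drosophila melanogaster genotypes. The 95, which are 1.82% of the 5209 such genes measured, were chosen by the deposited signals of all 12 arrays, with 1 probe set per gene, the one with the highest mean log2 signal over the 12 arrays. A gene was taken when its 3 BL15598 signals all lay above 1.5 times the highest, or below the lowest divided by 1.5, of the other 9 signals, and when the lowest signal on the brighter side was at least 100. For 32 genes BL15598 was the higher side and for 63 it was the lower side, which is 0.614% and 1.21% of the CG-named genes. The minimum of 100 has to hold on 3 arrays for a gene that is higher and on 9 arrays for a gene that is lower. The choice used every signal of BL15598, so the differences of BL15598 from the other genotypes are described here without a test, and tests are given only among the other 3 genotypes.

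The 12 arrays measured RNA from testes of 3-day-old males, each sample pooled from about 100 pairs of testes. BL15598 carries the X-chromosome markers y[1] and w[67c23] and the P-element insertion P{EPgy2}Amt[EY02782] at the ammonium transporter gene Amt, and its su(Hw) gene is wild type. Canton S is a laboratory wild type without these markers. A2663/2 is a su(Hw) null that carries the same markers and the same insertion, with the alleles su(Hw)[A2663] and su(Hw)[2]. The other null, 2/v, has the alleles su(Hw)[2] and su(Hw)[v] and adds ct[6] and f[1] to the y[1] and w[67c23] markers, so it shares those markers with BL15598 and A2663/2 and an allele with A2663/2. Each of the 4 genotypes has 3 arrays, and the labels call the replicates biological without saying whether they come from separate cultures. BL15598 is thus the wild type nearest in stated genotype to A2663/2, and every gene below enters a comparison of that null with its matched wild type.

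A CG number is the name a Drosophila gene receives when it is annotated from the genome, and it is kept until someone names the gene from a mutant, a protein or a relative. Many CG-named genes are known only through the protein family to which their sequence belongs, such as proteases, lipases, dehydrogenases or transporters. The testis transcribes an unusually large part of the fly genome, mostly in spermatocytes before meiosis, and many CG-named genes have their main expression there. Su(Hw) is a zinc-finger protein that binds DNA and is known for the insulator of the gypsy retrotransposon. Where a family is named below it is general background from sequence, not a result of these arrays.

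Array medians ran from 194 to 246 signal units and those of BL15598 from 194 to 226, with the lowest median of all 12 on a BL15598 array. The signal of su(Hw) was 1409.8, 1544 and 1223 in BL15598 and 864, 885 and 1205 in Canton S, against 56.7 to 89.6 in A2663/2 and 19.2 to 70 in 2/v. The arrays labelled BL15598 therefore carry the su(Hw) signal of a wild type. Amt, the gene with the insertion, had signals of 208, 194 and 74 in BL15598 and 108 to 164 in A2663/2, which overlap. Whether a whole-testis signal differs because fewer cells of a type were present or because each cell held less RNA cannot be told apart. Signals near 20.4, the median of 183 control probe sets, carry little information on level, and a fold whose dimmer side lies below it is given as a lower bound.

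By the same rule 114 CG-named genes (2.19%) were set apart in Canton S, 35 (0.672%) in 2/v and 2 (0.0384%) in A2663/2. Both wild types thus had many more genes apart from all other genotypes than A2663/2 did, which shares markers with BL15598 and an allele with 2/v. Among 6773 genes with another name, 86 (1.27%) were set apart in BL15598, 33 higher (0.487%) and 53 lower (0.783%).

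**Figure D1:**
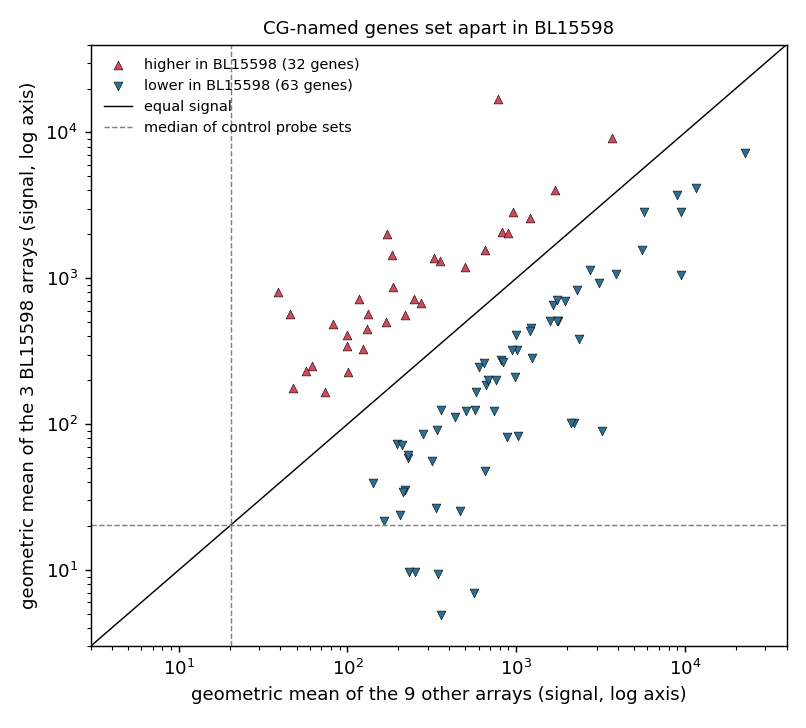
Geometric mean signal of each of the 95 genes in the 3 BL15598 arrays (vertical axis, log scale) against the 9 other arrays (horizontal axis, log scale). Upward triangles are the 32 genes higher and downward triangles the 63 genes lower in BL15598; the solid line marks equal signal and the dashed lines the median of the control probe sets, 20.4. For 5 of the lower genes the BL15598 mean lies under the dashed line.

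The median ratio of geometric means, BL15598 against the 9 other arrays, was 3.46-fold for the genes that are higher and 3.61-fold for those that are lower. The log2 difference ran from 1.10 to 4.45 for the higher genes and from -6.34 to -0.998 for the lower ones, while its median over all CG-named genes was -0.0031. The low end is not a measured size, since 5 lower genes have a BL15598 mean under the control level and give bounds alone; among the rest the greatest difference was -5.17, in CG30325. Brighter-side geometric means ran from 166 to 17007 for the higher and from 142 to 22828 for the lower genes. Both groups therefore hold weakly and strongly expressed genes. The median ratio of the highest to the lowest BL15598 array was 1.247 for the higher and 1.43 for the lower genes. In 1 higher gene, CG16998, and in 13 lower genes that ratio was above 2.

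Among the genes that were higher, CG13946 had the strongest signal. It read 13226, 15473 and 24036 in BL15598, 631, 596 and 529 in Canton S, 653, 1263 and 1057 in A2663/2 and 825, 606 and 1211 in 2/v. The lowest BL15598 array lay 10.5 times above the highest of the rest, the widest margin of the 32, and the ratio of geometric means was 21.8-fold. BL15598 replicate 3 was the brightest array, and no array of another genotype came near the 3 BL15598 arrays.

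CG8837 was weak in 3 genotypes and clearly expressed in BL15598. Its signals were 909, 907 and 621 in BL15598, 68.9, 14.6 and 42.1 in Canton S, 62.7, 20.9 and 30.3 in A2663/2 and 52.6, 44.8 and 47.8 in 2/v, a 20.7-fold difference with a single Canton S array below the control level. CG7214 had the same form, with 441, 494 and 853 in BL15598 against 17.2 to 134 with a median of 38.6 on the other arrays (12.5-fold). Its BL15598 replicate 3 was the brightest, and a single 2/v array lay below the control level.

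CG42819 read 1532, 1427 and 1352 in BL15598, 98.2, 172 and 148 in Canton S, 203, 236 and 205 in A2663/2 and 176, 199.5 and 263 in 2/v (7.86-fold). All 3 BL15598 arrays agreed closely here. CG7231 read 1576, 1256 and 1172 in BL15598 and 290.2 to 449 with a median of 344 elsewhere, 3.73-fold apart.

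Several higher genes were moderately to strongly expressed in every wild-type and null testis and higher still in BL15598. CG7997, which encodes an alpha-galactosidase, read 3077, 2998 and 2488 in BL15598 against 712 to 1156 on the other arrays (2.96-fold). CG7409, a member of the small heat shock protein family, read 2138, 2048 and 2040.0 against 571 to 957 (2.51-fold). CG13315 read 8921, 9820.3 and 8961 against 2631 to 4388 (2.5-fold). In these 3 genes the Canton S, A2663/2 and 2/v arrays overlapped one another and only BL15598 stood away.

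In other higher genes the 3 remaining genotypes were themselves unequal. CG9825, of the major facilitator family of membrane transporters, read 1929, 2136 and 2009 in BL15598, 787, 806 and 786 in Canton S and 866, 571 and 902 in A2663/2, but 26, 2.46 and 8.57 in 2/v. The 2/v arrays did not overlap any other genotype, and 2 of them lay below the control level. CG34396 read 897, 763 and 557 in BL15598, 269, 281 and 282 in Canton S, 66.1, 92.8 and 83.7 in A2663/2 and 56.3, 77.9 and 85 in 2/v. Here Canton S lay between BL15598 and the nulls, and the nulls overlapped each other.

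CG33543, whose protein has immunoglobulin-like domains, read 456, 546 and 459 in BL15598, 49.7, 33.9 and 29.3 in Canton S, 192, 139 and 171 in A2663/2 and 135, 78.5 and 71.5 in 2/v. CG43725 read 505, 402 and 443, 90.3, 66.8 and 65.3, 154, 176 and 145 and 203, 198 and 168 in the same order of genotypes. In both genes Canton S was lowest and did not overlap the nulls, while BL15598 is highest by the rule.

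Higher genes with a narrower margin varied in how the other genotypes lay. CG6435, a lysozyme of the invertebrate type, read 674, 642 and 427 in BL15598, 55.9, 56.5 and 76.3 in Canton S, 234, 139.8 and 161 in A2663/2 and 213, 189.8 and 242 in 2/v. CG16713, a Kunitz-type protease inhibitor, read 320.2, 271 and 468 against 50.7 to 162 on the other arrays, and CG16710, a serine protease gene, read 977, 825 and 814 in BL15598 against 520.5, 510.5 and 466 in A2663/2. Canton S was low and scattered for CG16710, at 37.9, 225 and 88.2, so its BL15598 margin was set by A2663/2. CG12133 and CG16998, also serine protease genes, read 498, 395 and 349 and 333, 252 and 147 in BL15598, against 8.05 to 189 and 27.4 to 93.1 elsewhere. The lipase gene CG17292 read 1866, 2102 and 2172 against 758 to 1137. These families are named for reading only, since they were looked up after the genes were chosen and were not tested as groups.

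**Figure D2:**
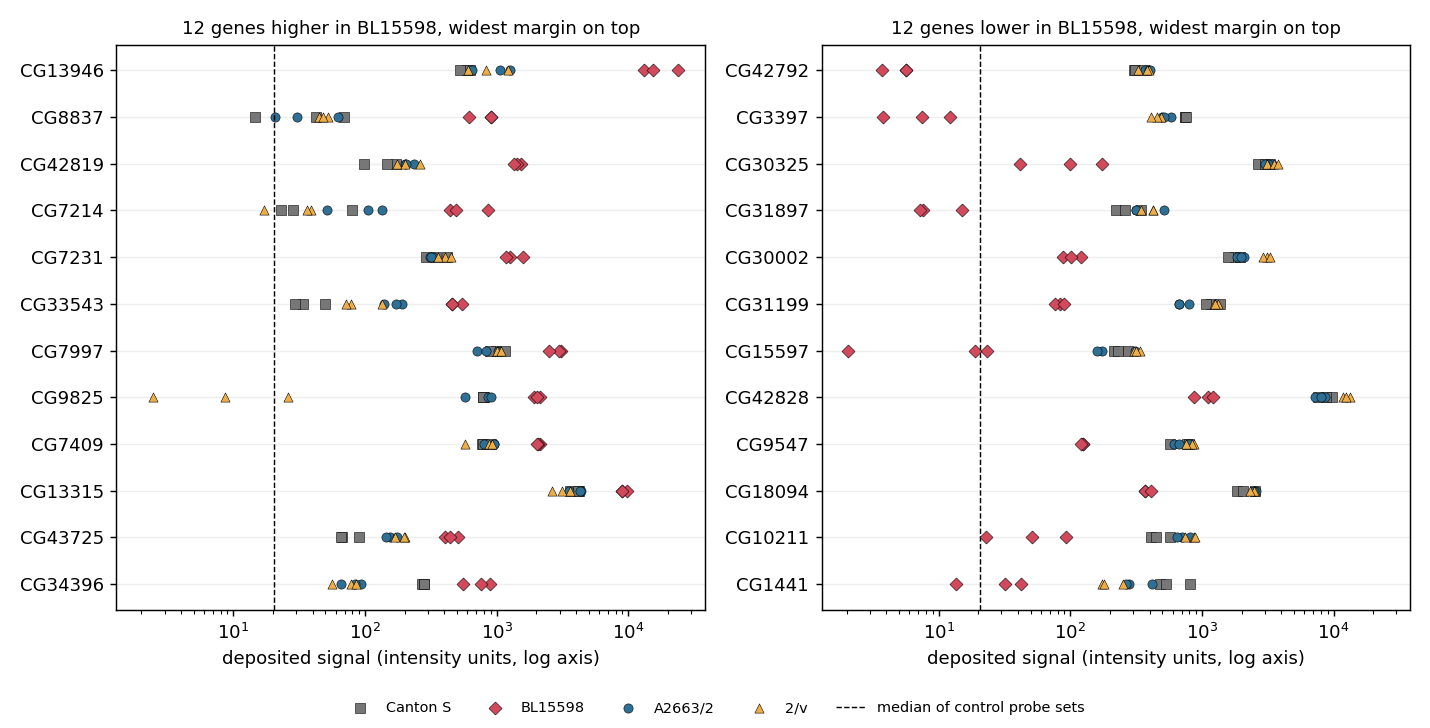
Deposited signal on each of the 12 arrays (horizontal axes, log scale) for the 12 genes per direction with the widest margin between BL15598 and the other 9 arrays. Each row is a gene, each mark is an array, and the dashed line is the median of the control probe sets, 20.4. BL15598 (diamonds) lies right of all other marks in the left panel and left of them in the right panel.

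Among the 63 lower genes, 3 had all 3 BL15598 arrays below the control level and clear signal on each other array. CG42792 read 5.62, 5.62 and 3.7 in BL15598, 307, 309 and 362 in Canton S, 369, 398 and 401 in A2663/2 and 393, 324 and 382 in 2/v, at least 17.6-fold lower in BL15598. CG3397, an aldo-keto reductase family gene, read 12.1, 3.77 and 7.41 in BL15598, 750.0, 737 and 755 in Canton S, 584, 499 and 518 in A2663/2 and 491, 457 and 411 in 2/v (at least 27.6-fold). CG31897 read 15.2, 7.67 and 7.17 in BL15598 against 223 to 514 with a median of 346 on the other arrays (at least 16.8-fold). For these 3 genes BL15598 gave no signal that the control probe sets do not also give.

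In 8 further lower genes 1 or 2 of the BL15598 arrays lay below the control level. CG15597 read 23.4, 18.9 and 2.07 in BL15598 and 158 to 339.8 elsewhere, at least 12.2-fold lower. CG1441, which belongs to the fatty acyl-CoA reductases, read 32.1, 13.5 and 42.4 in BL15598, 481, 533 and 814 in Canton S, 280.1, 265 and 418 in A2663/2 and 174, 253 and 179 in 2/v. The other 6 were CG42322, CG13386, CG30289, CG4133, CG34041 and CG31205. The size of the difference is uncertain in all 8, since the dim arrays scatter.

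CG30325 and CG30002 went from strong signal in the other genotypes to weak signal in BL15598. CG30325 read 41.2, 98.9 and 174 in BL15598 and 2656 to 3808 with a median of 3152 on the other arrays, 36-fold lower, with its highest BL15598 array 4.22 times its lowest. CG30002, a serine protease gene, read 120.2, 87.7 and 100.5 in BL15598, 1790.2, 1589 and 1929 in Canton S, 1842, 2079 and 1976 in A2663/2 and 3129, 2931 and 3272 in 2/v, 21.7-fold lower. In CG30002 the 2/v arrays were the highest and did not overlap Canton S or A2663/2.

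CG42828 was among the most strongly expressed of the genes, at 9709, 8771 and 7623 in Canton S, 8679.7, 7256 and 8046 in A2663/2 and 13429, 11824 and 12469.5 in 2/v, against 864, 1114 and 1215 in BL15598 (9.05-fold lower). CG17744 was brighter still, at 21000.3 to 27100.1 in the other genotypes and 8283, 9096 and 4936 in BL15598 (3.17-fold lower). CG3528 read 4238, 4355 and 3956 in BL15598 against 10672 to 12419 elsewhere (2.77-fold), and CG3408 read 2496, 2543 and 3576 against 8262 to 11697 (3.37-fold). These strongly expressed genes were lower in BL15598 but kept a signal far above the control level.

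Several of the lower genes encode enzymes of metabolism. CG9547, a glutaryl-CoA dehydrogenase gene of lysine and tryptophan breakdown, read 124, 125 and 120.2 in BL15598 against 576 to 871 (5.98-fold lower). CG2065, of the short-chain dehydrogenases related to retinol dehydrogenase, read 519, 507 and 507 against 1219 to 2087 (3.39-fold). CG8665, a relative of formyltetrahydrofolate dehydrogenase, read 40, 24.9 and 44.8 against 129 to 319 (6.22-fold). The BL15598 arrays lay close together in CG9547 and CG2065, with a highest-to-lowest ratio of 1.04 and 1.02, and less so in CG8665, with 1.80.

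Other enzyme genes were also picked from the lower genes, all of which have BL15598 lowest by the rule. The share of enzyme genes among them was not counted. CG10211, a haem peroxidase family gene, read 22.8, 51.5 and 92 in BL15598 and 409.9 to 893 elsewhere (13.8-fold lower). CG31021, of the prolyl 4-hydroxylase alpha subunit family, read 121, 62.3 and 72.4 against 448 to 1523 (10.7-fold), and the lipase gene CG18641 read 329, 375 and 189 against 1000.5 to 1632 (4.35-fold). CG16985, a thioesterase family gene, read 575, 508 and 462 against 1285 to 1860.5 (3.08-fold). CG6154, a dipeptidase gene, read 234, 189 and 184 in BL15598, 543, 671 and 765 in Canton S, 602, 633 and 453 in A2663/2 and 969, 1418 and 1234 in 2/v. CG18094 and the cytidine deaminase gene CG8353 read 370.3, 370.4 and 408 and 685, 651 and 636 in BL15598, against 1836 to 2553 and 1327 to 1927. The lower genes thus spanned several unrelated enzyme families.

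Of the 63 lower genes, CG13675 had the widest spread among the other 9 arrays. It read 97.5, 79 and 139 in BL15598, 320.4, 524 and 577 in Canton S, 3285, 3665 and 3488 in A2663/2 and 5766, 6266 and 5739 in 2/v. Its BL15598 margin was set by Canton S, and the nulls lay far above both wild types.

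At the limit of the rule, CG6654 with a margin of 1.54 and CG1468 with 1.52 were the last higher genes taken, and CG4069 with 1.49 and CG15236 with 1.46 the first ones left out. On the lower side CG31104 (1.52) and CG10621 (1.51) were taken, and CG10553 (1.48) and CG15824 (1.47) were not. CG4069 read 3189, 2800.2 and 2552 in BL15598 against 1023 to 1717 elsewhere, much as CG6654 read 1163, 1022 and 1424 against 329.6 to 662. The limit of 1.5 therefore divides genes that look alike.

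A probe set reports both how much transcript is present and how well that transcript matches its probes, and which of these differs in BL15598 was not tested. The 10 genes with more than 1 probe set are described here, which does not decide the question. The other genes of the set have a single probe set. Of their 15 other probe sets, 12 had the same sign of difference as the one chosen, and in 8 of these the BL15598 arrays did not overlap the rest. CG10508 had geometric means of 803 in BL15598 and 3060.2 elsewhere on its second probe set, and of 93.8 and 937 on another one. CG34367 had 88.1 against 617, CG33543 180 against 36.3 and CG34041 13.4 against 109 on theirs. The second probe set of CG13675 had 101 against 505, and 1 other probe set of CG18507 had 450 against 825, both without overlap. Second probe sets with the same sign but overlapping arrays were those of CG34396 (140 against 73.8), CG42322 (55.0 against 99.4) and CG13135 (43.5 against 56.0). The 3 probe sets of opposite sign belonged to CG34109 and CG18507, and in each of them BL15598 overlapped the other arrays. CG34109 had 4 others in all, of which a single one, at 63.7 in BL15598 and 417 elsewhere, repeated the gap.

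The genes were unevenly spread over the chromosomes, a property the rule did not use. Arm 2L held 38 of the 95, which is 3.99% of the 952 CG-named genes measured there. The shares were 1.70% on 2R (17 of 1000), 1.54% on 3L (16 of 1038) and 1.59% on 3R (20 of 1254). On the X chromosome it was 0.341%, with 3 of 880 genes, namely CG1468, CG3690 and CG2233. Of the 13 genes measured on chromosome 4 none was taken, and CG31544 could not be placed. Genes with another name set apart in BL15598 were also scarce on the X, at 4 of 993 (0.403%). Their share was 1.83% on 2L (23 of 1254), 1.68% on 2R, 1.28% on 3R and 0.995% on 3L, so 2L was again the highest of the large arms but by a smaller step. CG-named genes set apart in Canton S had 2.27% on the X (20 of 880) and 1.68% on 2L (16 of 952). Genes with another name set apart in Canton S had 0.604% on the X (6 of 993), the lowest of the large arms, and 2/v had 1 of 880 CG-named genes there (0.114%) and 0 of 993 others. A low share on the X was thus not particular to BL15598, and none of these shares was tested. BL15598, A2663/2 and 2/v share the X-linked markers y[1] and w[67c23], and Canton S does not carry them.

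**Figure D3:**
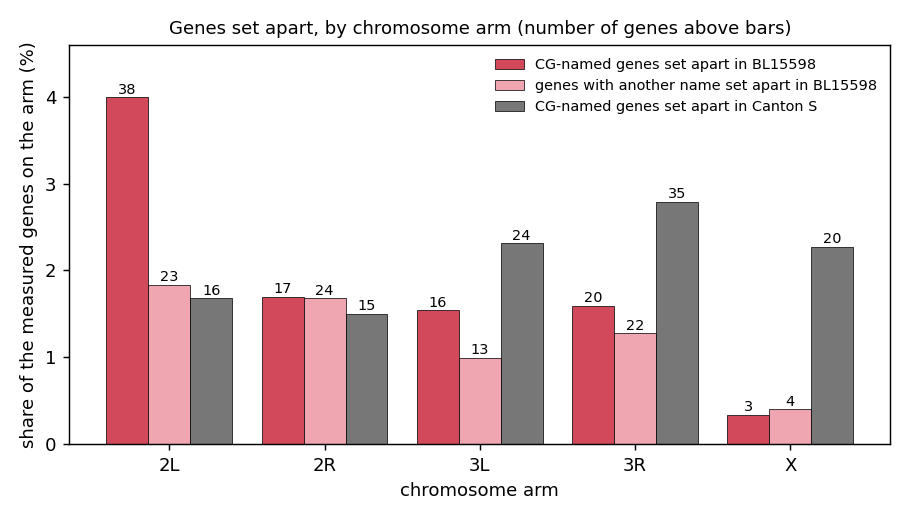
Share of the measured genes on each large chromosome arm that were set apart in BL15598, for CG-named genes and genes with another name, and in Canton S for CG-named genes (vertical axis in percent). The number above each bar is the number of genes. The CG-named BL15598 bar is highest on 2L (38 genes) and lowest on the X (3 genes).

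Some of the genes lie close to each other in the order of measured genes. Within a distance of at most 5 measured genes in between, 14 of the 94 placed genes had another of the set. They formed 8 pairs, of which 4 had the same direction and 4 the opposite. No such count was made for other sets of genes, so whether these genes lie closer together than others is not known. On 3R, CG31205, CG42322 and CG31199 were all lower in BL15598, at 18, 46.3 and 73.6, 3.47, 7.18 and 35.7 and 83, 77 and 90.1, against 119.9 to 191, 119 to 443 and 669 to 1368 elsewhere. CG42322 and CG31199 are direct neighbours whose annotated spans overlap, so the signal of either may include transcript of its neighbour. On 2L, CG34109 and CG13135 were both lower and also overlap, with 160.0, 98.4 and 119 and 68.6, 65.1 and 45 against 308 to 843 and 135 to 342. Also on 2L, CG13386 and CG31898 are direct neighbours that went opposite ways. CG13386 read 41.5, 68.9 and 5.69 in BL15598 against 220.2 to 891, and CG31898 read 481, 587 and 442 against 105 to 277.

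The lysozyme genes CG6426 and CG6435 on 2R, with 2 measured genes between them, also went opposite ways. CG6426 was lower in BL15598, at 526, 602 and 304 against 1010.1 to 1635, while CG6435 was higher. On 3R, CG31104 and CG31288, both of a family of ecdysteroid kinase-like proteins, were both lower, at 59.1, 69.4 and 89.6 and 284, 211 and 325 against 136 to 295 and 615 to 1328. CG1441, lower, and CG12133, higher, form the other such pair on 2R, and CG42819, higher, lies near CG13386 on 2L. The values of close relatives among these genes are uncertain, because whether the probes tell them apart was not tested.

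Near the insertion at Amt, 11 measured genes away, lay CG6654, a zinc-finger gene that read 1163, 1022 and 1424 in BL15598. It was the only one of the 95 within 100 measured genes of Amt, and lies 74 measured genes from su(Hw). A2663/2, which carries the same insertion, read 516, 658 and 662 for CG6654. Canton S read 495, 469 and 496, and 2/v read 329.6, 369 and 596. Whether the insertion bears on the signal of CG6654 was not tested.

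Compared by genotype mean, BL15598 was nearest to A2663/2 for 17 of the 32 higher genes, to Canton S for 8 and to 2/v for 7. For the 63 lower genes the counts were 23, 22 and 18. The rule itself keeps every array of these 3 genotypes away from BL15598, so the counts are a description of order alone.

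The choice did not compare Canton S, A2663/2 and 2/v with each other, but it bounds their 9 arrays on the side that faces BL15598. Differences among them were tested with limma on all 18769 probe sets with Benjamini-Hochberg adjustment. The fit took its spread from all 12 arrays, so BL15598 signals used by the choice enter each p-value and share of the 95 below. In fits of only the 6 arrays of a pair, A2663/2 against Canton S gave 12 of the 95 and 1134 of the 18769 probe sets. Likewise, 2/v against Canton S gave 16 and 1311, and 2/v against A2663/2 gave 3 and 85. In A2663/2 against Canton S, 21 of the 95 genes passed at an adjusted p under 0.05, 9 higher and 12 lower in A2663/2, and 74 did not pass. Over all probe sets 9.21% passed (6.36% higher, 2.85% lower), over all CG-named genes 11.7%, and over the 3889 CG-named genes with all 3 arrays of some genotype at 100 or more 14.5% (9.46% higher, 5.07% lower). In 2/v against Canton S, 24 of the 95 passed, 15 higher and 9 lower, and 71 did not. The background shares were 10.4% of all probe sets (6.84% higher, 3.59% lower), 12.8% of all CG-named genes and 16.0% of the brighter ones (9.26% higher, 6.71% lower). The median absolute log2 difference was 0.45 over the 95 genes and 0.20 over those brighter CG-named genes in the first comparison, and 0.43 and 0.21 in the second. In the fit of all 12 arrays, genes set apart in BL15598 were thus called between a null and Canton S in 22.1% and 25.3% of cases. The fits of 6 arrays, which leave out the BL15598 signals, called fewer, 12 and 16 of the 95. Shares over the CG-named genes were not computed for those fits. Both comparisons share the Canton S arrays, so their values are given side by side below. After centring each array on its median the split of the 24 and 28 calls among the 95 was 7 higher and 17 lower, and 10 higher and 18 lower. Over all probe sets it was 817 higher and 997 lower, and 892 higher and 1339 lower. Without centring all probe sets gave 1194 higher and 535 lower, and 1284 higher and 673 lower. The turn toward lower calls after centring was thus not particular to the 95 genes. Centring moved the median log2 difference of all probe sets from 0.06 to -0.13 and from 0.07 to -0.13.

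Of the genes higher in BL15598, 7 rose and 3 fell in A2663/2 against Canton S. CG33543 rose (log2 2.17, SE 0.272, adjusted p = 0.000955), as did CG10799 (log2 2.10, SE 0.147, adjusted p = 4.82e-05), CG6435 (log2 1.49, SE 0.243, adjusted p = 0.0045) and CG43725 (log2 1.11, SE 0.16, adjusted p = 0.00223). All 4 rose in 2/v as well, CG33543 with log2 1.31, SE 0.272, adjusted p = 0.0136, CG10799 with log2 1.12, SE 0.147, adjusted p = 0.00107, CG6435 with log2 1.78, SE 0.243, adjusted p = 0.00137 and CG43725 with log2 1.37, SE 0.16, adjusted p = 0.000543. For these genes Canton S lay lowest. BL15598 is highest by the rule, so the place of both nulls in between only restates their rise. CG10799 read 1431, 1266 and 1422 in BL15598, 179, 131 and 155 in Canton S, 651, 722 and 609.9 in A2663/2 and 368, 353 and 289 in 2/v. CG16710 rose in A2663/2 (log2 2.45, SE 0.508, adjusted p = 0.0151), a call lost without A2663/2 replicate 1 (adjusted p = 0.0531) or replicate 2 (adjusted p = 0.0511).

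CG34396 went the other way and fell in A2663/2 (log2 -1.79, SE 0.215, adjusted p = 0.000787) and in 2/v (log2 -1.95, SE 0.215, adjusted p = 0.000389). CG9825 fell in 2/v against Canton S at least 38.8-fold (log2 -6.60, SE 0.661, adjusted p = 0.000207), and its A2663/2 arrays overlapped those of Canton S. On the probe sets used, CG34396 and CG9825 thus had a null below Canton S, while the rule itself places BL15598 above it.

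Of the genes lower in BL15598, 2 rose and 9 fell in A2663/2 against Canton S, and 10 rose and 6 fell in 2/v. CG13675 rose in A2663/2 (log2 2.92, SE 0.247, adjusted p = 9.25e-05) and in 2/v (log2 3.69, SE 0.247, adjusted p = 2.46e-05), and so did the serine protease gene CG10764 (log2 1.42, SE 0.167, adjusted p = 0.000703, then log2 0.91, SE 0.167, adjusted p = 0.00749). CG10764 read 178, 235 and 220.3 in BL15598, 476, 601 and 673 in Canton S, 1588, 1589.9 and 1454 in A2663/2 and 1172, 1175 and 920.4 in 2/v. For CG13675 and CG10764 the nulls were highest. BL15598 is lowest by the rule, so the place of Canton S between them only restates the rise.

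CG5697 fell in both nulls, with log2 -0.91, SE 0.102, adjusted p = 0.00054 in A2663/2 and log2 -1.54, SE 0.102, adjusted p = 2.35e-05 in 2/v. It read 2076, 2044 and 2271 in Canton S, 1083, 1074 and 1253 in A2663/2, 682, 739 and 774 in 2/v and 429, 439 and 429 in BL15598, so the 4 genotypes did not overlap one another. CG10508 fell in A2663/2 (log2 -0.76, SE 0.126, adjusted p = 0.00468) and in 2/v (log2 -0.77, SE 0.126, adjusted p = 0.00378), as did CG15563 (log2 -0.72, SE 0.167, adjusted p = 0.026, then log2 -0.97, SE 0.167, adjusted p = 0.00522). For these 3 genes Canton S was highest. BL15598 is lowest by the rule, so this order only restates the falls in the nulls.

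Falls in A2663/2 that did not pass in 2/v included the neighbours CG34109 (log2 -1.01, SE 0.222, adjusted p = 0.0201) and CG13135 (log2 -0.97, SE 0.188, adjusted p = 0.0107), the serine protease gene CG31220 (log2 -1.09, SE 0.209, adjusted p = 0.0105) and CG31199 (log2 -0.76, SE 0.125, adjusted p = 0.00477). The call of CG34109 was lost without Canton S replicate 3 (adjusted p = 0.0682), A2663/2 replicate 2 (adjusted p = 0.077) or A2663/2 replicate 3 (adjusted p = 0.0746). With only the 6 arrays of the pair in the fit, the calls of CG34109 (adjusted p = 0.0504), CG31220 (adjusted p = 0.0698) and CG16710 (adjusted p = 0.106) were lost. Only for CG31220 and CG31199 did the test of 2/v against A2663/2 itself also pass. In 2/v, CG34284 rose (log2 1.38, SE 0.0986, adjusted p = 3.44e-05) and CG1441 fell (log2 -1.58, SE 0.406, adjusted p = 0.0371). The call of CG1441 did not hold without any 1 of the 6 Canton S and 2/v arrays, with adjusted p from 0.058 to 0.116.

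**Figure D4:**
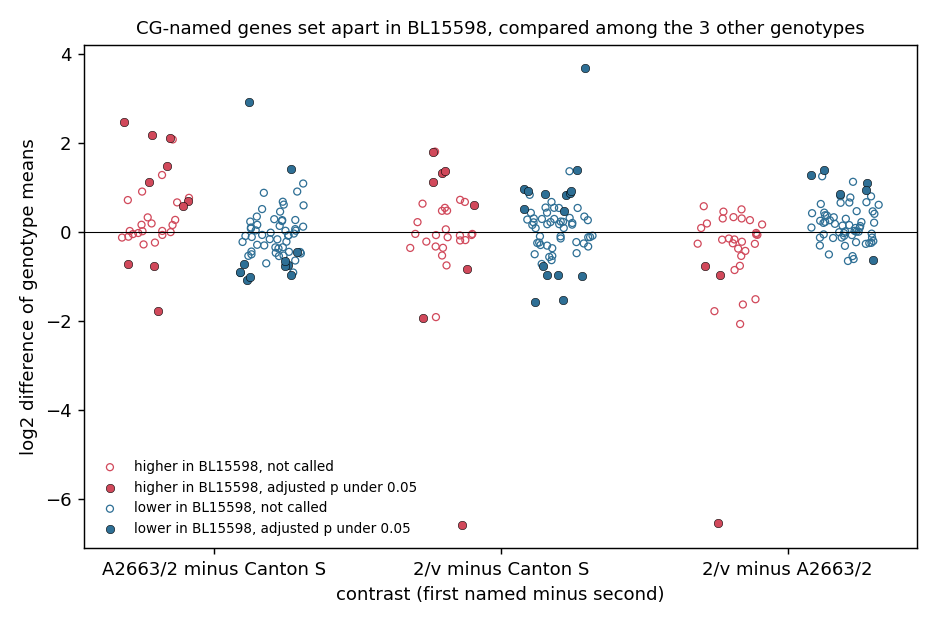
Log2 difference of genotype means (vertical axis) for the 95 genes in the 3 comparisons among genotypes other than BL15598, with the 32 genes higher and the 63 genes lower in BL15598 side by side. Filled marks passed limma at an adjusted p under 0.05 (21, 24 and 9 genes); horizontal scatter only separates the marks. CG9825 is the isolated mark near -6.5 in both comparisons of 2/v, where its 2/v mean lies below the control level and the size is a bound alone.

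The 2 nulls differed from each other in 9 of the 95 genes, 5 higher and 4 lower in 2/v, and 86 did not pass. Of all probe sets 0.927% passed (0.352% higher, 0.575% lower), of all CG-named genes 1.34% and of the brighter CG-named genes 1.67% (0.54% higher, 1.13% lower), against 9.47% of the 95. CG9825 was at least 37.4-fold lower in 2/v (log2 -6.54, SE 0.661, adjusted p = 0.00159), and CG10799 (log2 -0.98, SE 0.147, adjusted p = 0.0158) and CG11123 (log2 -0.78, SE 0.106, adjusted p = 0.00889) were lower too. All 3 are higher in BL15598 than elsewhere. CG11123 read 692, 687 and 645 in BL15598, 274, 248 and 226 in Canton S, 395, 366 and 356 in A2663/2 and 209.7, 208 and 234 in 2/v, so A2663/2 alone lay toward BL15598.

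Among genes lower in BL15598, CG34284 was higher in 2/v than in A2663/2 (log2 1.27, SE 0.0986, adjusted p = 0.000318), at 1815, 1854 and 1918 against 723, 737 and 861 and 308, 338 and 327 in BL15598. CG31220 (log2 1.38, SE 0.209, adjusted p = 0.0158), CG6154 (log2 1.10, SE 0.201, adjusted p = 0.0414), CG31544 (log2 0.94, SE 0.151, adjusted p = 0.0215) and CG31199 (log2 0.84, SE 0.125, adjusted p = 0.0156) were higher in 2/v too, while CG5697 was lower (log2 -0.63, SE 0.102, adjusted p = 0.0215). CG31220 read 55.8, 50.5 and 61.7 in BL15598, 515, 284 and 383 in Canton S, 191, 164 and 187 in A2663/2 and 559.7, 431 and 430.4 in 2/v. In CG31220 and CG31199 A2663/2 lay between BL15598 and the other genotypes without overlap. In 8 of the 9 genes A2663/2 lay nearer to BL15598 than 2/v did, the exception being CG5697. The rule puts BL15598 at an end of the range in every gene, so this order only restates the sign of each difference. The share over other genes was not computed. The test of 2/v against A2663/2 is sensitive to the number of arrays. Leaving out A2663/2 replicate 1, 2 or 3 left 4, 3 and 3 of the 9 genes passing. Leaving out 2/v replicate 1, 2 or 3 left 5, 2 and 3. After quantile normalization 12 of the 95 passed, 8 higher and 4 lower. With only the 6 arrays of the 2 nulls in the fit 3 of the 95 passed, and CG9825 (adjusted p = 0.076) was not among them. Of the genes named here, CG6154 and CG31544 lost their calls with replicate number as a block (adjusted p = 0.105 and 0.0704), and CG6154 and CG5697 after centring (adjusted p = 0.0567 and 0.0562).

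Markers of the cells that a testis sample can hold were compared over the whole of each list. The summed signal of 14 spermatocyte and spermatid markers was 145970.2 to 209841 in BL15598 and 153109 to 199202 on the other arrays, which overlap. In that list sa lay above and aly below all other arrays in BL15598, and of 4 stem cell and spermatogonium markers zpg lay below. Hemocyte markers summed to 1879.5 to 2108 in BL15598 against 2298 to 3367 elsewhere, with srp and Col4a1, 2 of 8, below every other array. Muscle sheath markers summed to 32737 to 42001 against 28966 to 34860.4, with Mlp60A, 1 of 9, above every other array. Fat body markers summed to 24709 to 30407 against 21884 to 26254, with Obp99a, 1 of 9, above. Hemocyte sums did not overlap, and those of muscle and fat body did. A sum weighs bright genes most, and the hemocyte markers besides srp and Col4a1 each overlapped the other arrays. Against Canton S these went both ways. Pxn read 192, 166 and 214 in BL15598 and 142, 137 and 121 in Canton S. For eater the values were 31.3, 54.4 and 66.5 in BL15598 and 109, 61.7 and 101 in Canton S.

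Accessory gland markers summed to 27616 to 49337 in BL15598 and 28072 to 72829 elsewhere, with 0 of 11 apart. Of 3 ejaculatory duct markers 0 lay apart, though Dup99B read 4512, 35.1 and 81.7 in BL15598 and 3477 in A2663/2 replicate 1. Neuron markers summed to 1075 to 1259 against 1093 to 2449, with 0 of 6 apart. Gut and Malpighian tubule markers summed to 548 to 669 against 456 to 844, with 0 of 8 apart and Jon25Bi below the control level on all 12 arrays. The part of these cell types in the values of the 95 genes was not tested.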

How the data were processed

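RNA of 12 testis samples was measured on Affymetrix arrays, 1 per sample. The authors deposited 1 intensity per probe set, linear in scale. The submitters' processing notes name Partek 6.5 and RMA without saying what each did, and every array has a trimmed mean of 1500.03 (2% from each end), so the scaling method is unknown here. Scaling can turn small differences, and its effect is given beside the counts. The number of arrays limits the precision.

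Computed here were log2 of the deposited intensity (no offset), gene names from the platform annotation, updated by the RefSeq gene table (assembly Release 6 plus ISO1 MT; 13544 of 13647 single-symbol probe sets matched), and a limma 3.58.1 fit (R 4.3.3) of 4 genotype means to 18769 probe sets, two-sided, with Benjamini-Hochberg adjustment and a threshold of 0.05. The fit was tested on simulated data. That table also gave the order of genes. Folds of BL15598 are ratios of geometric means. No detection call was used.

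The genes, lists and tests were chosen with earlier results of these data known. Genes are named where they are the 12 per direction with the widest margin, the 2 on each side of the limit, the 4 per direction with the largest change in each tested comparison, neighbours, or in disagreement with another probe set. The remaining genes named, and the gene families, were chosen after the values were seen, since the tables used hold no product names. Same-numbered replicates did not deviate together (r -0.037 to 0.0935 over 18 pairs), so replicate number was not a block.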

Additional observations from a re-analysis of the deposited data

Results flagged for a closer look

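Signals of the su(Hw) null stocks A2663/2 and 2/v differed in 9 of the 95 genes, by limma's test of 2/v against A2663/2 itself. The stocks differ in a su(Hw) allele, and also in the stated markers and the stated insertion at Amt. The part of su(Hw) in these differences was not tested. The fitted log2 differences were -6.54 for CG9825, whose 2/v mean lies below the control level so that the fold is given as at least 37.4, -0.98 for CG10799, -0.78 for CG11123 and -0.63 for CG5697, all lower in 2/v. They were 1.38 for CG31220, 1.27 for CG34284, 1.10 for CG6154, 0.94 for CG31544 and 0.84 for CG31199, all higher in 2/v. In 8 of the 9 genes, CG5697 being the exception, the A2663/2 mean lay nearer to BL15598 than the 2/v mean did. By the rule BL15598 lies at an end of the range, so this only restates the signs, without a share over other genes. Groups of 3 arrays are too small for a check of single outlying arrays.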

How the results depend on the processing

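The number of genes set apart depended on the margin, with 61 higher and 101 lower at a narrower margin and 10 and 41 at a margin of 2. Under the other alternatives it stayed within 1.5 times, from 29 to 40 higher and from 49 to 64 lower, and leaving out 1 array gave 32 to 46 and 63 to 78. With fewer arrays the rule is only easier to meet, so leaving out 1 could not lower these counts unless the probe set chosen changed. Centring kept 29 of the 32 and 56 of the 63, and quantile normalization 29 and 58. With only the 6 arrays of a pair in the fit, A2663/2 against Canton S gave 1134 probe sets and 12 of the 95 genes, and 2/v against A2663/2 gave 85 and 3. The comparison of the nulls gave 16 of the 95 genes after a filter on dim probe sets and 14 with a trended and robust prior, and the cause was not tested. Leaving out 1 array gave 1121 to 1438 probe sets and 14 to 20 of the 95 genes in A2663/2 against Canton S, 1339 to 1649 and 17 to 23 in 2/v against Canton S, and 92 to 107 and 2 to 5 in 2/v against A2663/2, against 1729 and 21, 1957 and 24, and 174 and 9 with all arrays. With replicate number as a replicate block the 3 comparisons gave 18, 21 and 7 of the 95 genes. Apart from CG6154 and CG31544 in 2/v against A2663/2, the block ended no call of the 24 named results. Of those 24, 13 kept direction and call under every alternative, and none of the 288 values reversed. Signals near the control level limit what can be said of sizes.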

Other observations

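Of 4720 probe sets without a gene name, 10 were higher and 22 lower in BL15598 by the same rule. Genes with another name that met it included on the higher side the chitin-related genes Cpr47Ed, Cpr50Cb, Cpr100A and Gasp and the cytochrome P450 gene Cyp6g1. On the lower side they included the metallothionein genes MtnB and MtnD, the cytochrome P450 genes Cyp6d5, Cyp4ac1 and Cyp310a1, and the gap junction gene zpg. They were picked from 33 and 53 such genes after the list was seen, and no test of these groups was made.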
